A study of Mus musculus with 5 samples.

Results

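Genes longer than 200 kb were followed here by nascent RNA sequencing in mouse embryonic stem cells (MESC) and mouse embryonic fibroblasts (MEF). A protein-coding gene was included when its longest transcript in the GENCODE annotation of mm9 spanned at least 200 kb. That rule uses no measured value, but it was chosen with earlier results of these data known. The rule gave 943 gene models (942 symbols) of 22885 models of at least 2 kb. Their median length was 318 kb, 193 reached 500 kb and 51 reached 1000 kb. The 936 with at least 50% of the body outside other genes of the same strand were measured. The other 7 models (Gm10406, Gm3739, AF064781, Palm2, Cfhr2 and both models of Runx2) are only listed.

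In global run-on sequencing (GRO-seq), nuclei are isolated, engaged RNA polymerases add a brominated nucleotide to the RNA they are making, and that RNA is captured and sequenced. A read therefore marks an engaged polymerase and its strand, in introns as well as exons. MESC were line V6.5, from a C57Bl/6 mother and a 129/Sv father, grown with LIF on irradiated feeder cells and collected at passages 12 to 14 (3 samples). MEF, of the same cross, came from male E13.5 embryos at passage 2 and were grown without LIF (2 samples). The reads of each cell type were used as 1 pooled set, so no spread between samples exists, no p-value is given for any difference between the cell types, and all intervals are 95% intervals that cover counting error only. Whether the samples were separate cultures is not stated in the sources used here.

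Transcription of such a gene takes far longer than that of a gene of usual length, and most of the transcript is intron that is removed. Many of these genes encode neuronal adhesion molecules, channels and large scaffold proteins, and several lie at common fragile sites. Long genes often carry several promoters: a distal one at the annotated beginning, and internal ones that make shorter transcripts. Mammalian promoters fall broadly into those rich in CG dinucleotides, many of them used in a wide range of cells, and those poor in them, many of them used in few cell types.

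Runx1, a transcription factor gene of blood development, Dlc1, which encodes a GTPase-activating protein, and Filip1l each had an internal start in use and at most 3 reads at the first start in the cell type that placed them in this group. Their start regions are shown because read density in each of them goes up at or beyond the internal start. Density also went up at the internal starts of Palld, Oxr1 and Auts2, so the genes shown are examples only. Each run holds 140 bases before the annotated start and 10 bases from it, 5′ to 3′ on the gene's strand in mm9, and capitals mark CG dinucleotides.
Runx1 first start, chr16:92826302-92826451, minus strand: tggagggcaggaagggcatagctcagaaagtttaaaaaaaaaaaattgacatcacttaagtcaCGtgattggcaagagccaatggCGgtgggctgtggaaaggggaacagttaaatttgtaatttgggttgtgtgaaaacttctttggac
Runx1 internal start, chr16:92697564-92697713, minus strand: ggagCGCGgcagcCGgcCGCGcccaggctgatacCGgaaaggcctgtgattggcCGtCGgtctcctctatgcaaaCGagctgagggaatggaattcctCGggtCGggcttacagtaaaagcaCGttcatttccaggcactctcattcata
Dlc1 first start, chr8:38001678-38001827, minus strand: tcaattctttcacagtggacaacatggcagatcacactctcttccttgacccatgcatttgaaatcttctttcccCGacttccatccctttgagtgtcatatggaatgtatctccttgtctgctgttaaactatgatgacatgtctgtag
Dlc1 internal start, chr8:37676988-37677137, minus strand: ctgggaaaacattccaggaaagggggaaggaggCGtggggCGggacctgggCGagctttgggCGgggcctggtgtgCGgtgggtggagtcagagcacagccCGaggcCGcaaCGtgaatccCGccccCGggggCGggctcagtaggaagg
Filip1l first start, chr16:57353066-57353215, plus strand: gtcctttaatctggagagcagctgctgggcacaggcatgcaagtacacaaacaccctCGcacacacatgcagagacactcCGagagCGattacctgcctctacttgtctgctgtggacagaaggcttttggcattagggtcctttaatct
Filip1l internal start, chr16:57549215-57549364, plus strand: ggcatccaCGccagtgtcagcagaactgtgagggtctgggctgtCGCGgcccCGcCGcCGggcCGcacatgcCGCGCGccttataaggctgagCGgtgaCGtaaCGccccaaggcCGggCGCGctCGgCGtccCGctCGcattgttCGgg

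In Runx1, Dlc1 and Filip1l the first start had few CG dinucleotides (2, 1 and 3 in the run shown) and the internal start had more (12, 11 and 21). The ratio of observed to expected CG in 500 bases around the start gave the same picture, with 0.268 and 0.966 in Runx1, 0.343 and 0.763 in Dlc1, and 0.321 and 0.880 in Filip1l. The same order was seen in Mid1 (0.309 and 1.04), Palld (0.214 and 0.60), Arfip1 (0.713 and 0.924) and Nav3 (0.429 and 0.480). Tead1, Ssh2, Dclk1 and Auts2 had the opposite order. The ratio was 1.08 at the first and 0.393 at the internal start of Tead1, and 0.908 and 0.833 in Ssh2. It was 0.587 and 0.433 in Dclk1, and 1.06 and 0.808 in Auts2. Oxr1 was nearly equal at both starts (0.968 and 0.982). Over all 943 first starts of the long genes the median was 0.727, beside 0.765 for coding genes of 50 to 200 kb and 0.629 for those of 2 to 50 kb. The 1945 internal starts of long genes had a median of 0.272, and 7.15% of them reached 0.6, beside 6.59% of the internal starts of all coding genes. Among the 30 internal starts of long genes in use in either cell type, as defined below, 12 reached 0.6 (40.0%). Of the 74 first starts of long genes in use, 65 did (87.8%). The share among internal starts in use was not taken for shorter genes. Long genes with an internal start in use had 15 first starts with at most 3 reads in each set, and 6 of these reached 0.6 (40.0%).

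Short motifs were looked for on both strands from 250 bases before to 50 after each start, with overlaps between motifs allowed. TATAAA was present at 5.62% of the first starts of long genes, 7.14% of those of genes of 50 to 200 kb and 10.3% of those of all coding genes. In the same order GGGCGG was present at 56.6%, 60.4% and 50.0%, CCAAT at 31.4%, 33.4% and 37.4%, and CACGTG at 6.79%, 9.07% and 8.60%. A match says only that the letters are there.

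The MESC set held 8616592 reads and the MEF set 6583644. Long gene bodies, with other genes of the same strand taken out, took 5.75% of the MESC and 8.08% of the MEF reads outside the mitochondrial genome. Exons make up 1.74% of the length of the measured bodies and held 3.49% and 3.28% of their reads. For the exon shares, other genes of the same strand were not taken out. For each gene with at least 50 body reads in 1 set, density in one set 4-fold or more above the other is called MESC-high or MEF-high below. All 8 pluripotency markers were MESC-high, with a summed density 0.459% as high in MEF, where Zfp42, Tdgf1 and Lin28a had no read. Of 11 fibroblast markers 9 were MEF-high, and their summed density in MESC was 4.41% of that in MEF, with 10 of the 11 above background and none at 0. The MESC cultures contained irradiated feeder cells, and the part of those cells in the MESC reads of long genes was not tested. Densities are given as RPKM, reads per kilobase scaled to the reads of the set outside the mitochondrial genome. Of the 7 neural markers, Tubb3 had no countable bases in its body and was not measured. The others summed to 6.74 RPKM in MESC and 2.68 in MEF, with 3 MESC-high. Dcx went the other way, with 1 read in MESC and 35 in MEF. The 8 macrophage and blood markers summed to 0.233 and 2.84 RPKM, with 2 MEF-high and Tyrobp at 0 in MESC. Lyz2 (1 read in MESC and 46 in MEF) and Ptprc (4 and 35) were also higher in MEF, with too few reads to be called.

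The first question was which long genes are transcribed. A body, from 1000 bp after the start to the end of the transcript with other genes of the same strand taken out, was called transcribed when the lower bound of its density exceeded the density of regions more than 10 kb from any gene. By that measure 612 of 936 long genes were transcribed in MESC (65.4%) and 678 in MEF (72.4%). The density of those distant regions was 0.187 reads per kb in MESC and 0.110 in MEF. It was higher in MESC also after scaling to the reads of each set. Its part in the difference between the sets was not tested. Over all gene models, which include non-coding ones, the shares were 66.0% and 62.4%. Coding genes of 50 to 200 kb had higher shares, 81.1% in MESC and 79.0% in MEF, and those of 2 to 50 kb had 69.7% and 65.2%. Among the long genes the share went down with length. In MESC it was 76.1% at 200 to 300 kb, 64.2% at 300 to 500 kb, 45.8% at 500 to 1000 kb and 39.2% above 1000 kb. In MEF it was 80.3%, 73.8%, 54.9% and 47.1%. Transcribed long genes had a median density of 0.176 RPKM in MESC and 0.200 in MEF, below the 0.501 and 0.498 of genes of 50 to 200 kb.

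The largest models need a caution. Gm20388 (4435 kb) and Fgfr2 (3009 kb) each span many other genes of the same strand (39 and 16 coding ones), so their reads come from what is left between those genes. The next ones are single genes: Dmd (2257 kb), which encodes dystrophin, Cntnap2 (2241 kb), a neuronal adhesion molecule, and Ptprd (2073 kb), a receptor phosphatase. In all, 10 models spanned 3 or more coding genes of their strand, and leaving them out changed the counts of 4-fold differences below to 62 and 136.

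Polymerase density in the body was then compared between the cell types. Among 802 long genes with at least 50 reads in 1 set, 63 were MESC-high (7.86%) and 136 MEF-high. Among all 11001 gene models tested 7.94% were MESC-high and 5.54% MEF-high, so the MESC-high share of long genes was near the background. For the MEF-high genes the corresponding share was 6.63% at 50 to 200 kb and 3.64% at 2 to 50 kb. The median log2 ratio of MESC to MEF was -0.31 in long genes, 0.18 in genes of 50 to 200 kb, 0.35 in those of 2 to 50 kb and 0.29 in all gene models. Scaling by the median ratio of all bodies lowers every log2 ratio by 0.29, to a median of -0.60 in long genes with 51 MESC-high and 164 MEF-high. TMM factors gave 51 and 155. With 35-base MESC reads alone, the counts were 49 and 146. Reads of 35 and 36 bases from the same MESC set, compared with each other over 625 long genes, differed by at least 4-fold in 4, and their log2 ratio had an SD of 0.47, beside 0.17 from counting alone.

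**Figure D1:**
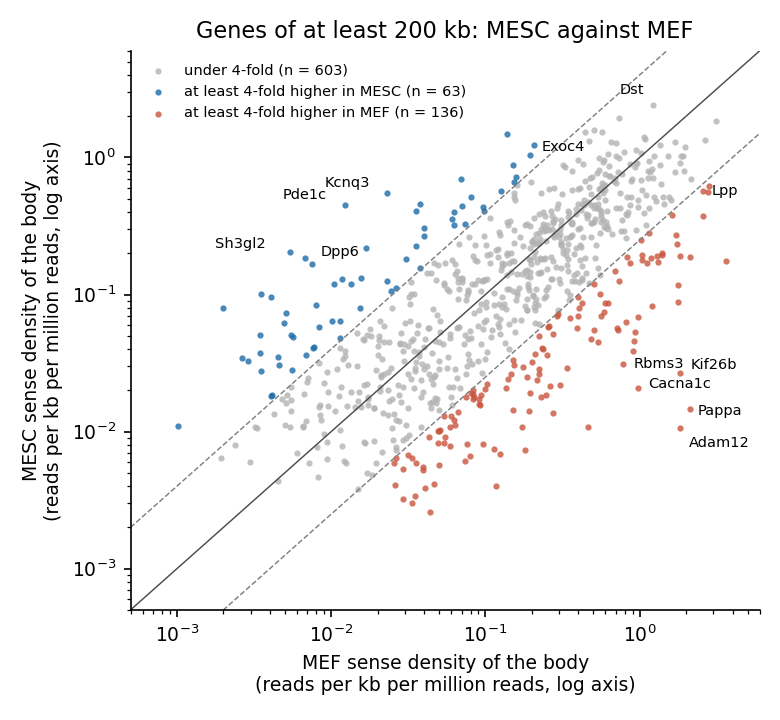
Sense density of the gene body of 802 long genes in MEF (x axis) and MESC (y axis), in RPKM on log axes, with counts under 3 drawn as 3 reads. The solid line marks equal density and the dashed lines 4-fold differences; 63 genes lie above the upper and 136 below the lower dashed line.

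Among the genes with the lowest ratios were secreted and membrane proteases, a kinesin and channel subunits. Adam12, a membrane metalloprotease, held 31 reads in MESC and 4098 in MEF, a density 172-fold higher in MEF (121 to 254). Pappa, a secreted metalloprotease that cleaves IGF-binding proteins, held 29 and 3210 reads, 144-fold higher in MEF (100 to 216). Kif26b, a kinesin-family protein, held 92 and 4816 reads, 68.3-fold higher in MEF (55.6 to 84.9). Cacna1c, the pore subunit of an L-type calcium channel, held 107 and 3839 reads, and Kcnab1, a potassium channel subunit, held 25 and 810. Pde7b, a cAMP phosphodiesterase, held 11 and 248. In MEF every one of the 20 equal parts of Adam12 held 111 reads or more. In Cacna1c parts 1 to 3 held 6, 3 and 24 MEF reads and part 4 held 297.

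Among the genes with the highest ratios were endocytic proteins and potassium channel subunits. Sh3gl2, which encodes the endocytic protein endophilin A1, held 536 reads in MESC and 11 in MEF, 37.4-fold higher in MESC (20.7 to 75.3). Amph, the endocytic protein amphiphysin, held 321 and 9 reads, 27.3-fold higher (14.2 to 60.3). Kcnq3, a subunit of a neuronal potassium channel, held 1367 and 44 reads, and Dpp6, an auxiliary subunit of other potassium channels, held 1289 and 45. A830018L16Rik held 461 and 15. Pde1c, a phosphodiesterase, also ranked among these with 1146 and 24 reads, but 1092 of its MESC reads lay in 1 of its 20 parts at 17 distinct positions. Counting each position once gave Pde1c a log2 ratio of 1.22, under the 4-fold limit, in place of 5.19.

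The reads themselves, before scaling, were highest in MESC at Gm20388, Dst, Exoc4, Etl4 and Adk. Dst, a cytoskeletal linker, held 6126 reads in MESC and 2368 in MEF. Exoc4, a subunit of the exocyst, held 5594 and 2037. In MEF the highest were Lpp, Gm20388, Slit3, Rbms3 and Fndc3b. Lpp, a focal adhesion protein, held 2938 reads in MESC and 10106 in MEF, and Slit3, a secreted guidance ligand, held 1177 and 6671. Rbms3, an RNA-binding protein gene of 1052 kb, held 279 and 5416. Etl4, the fourth of the MESC genes, was 9.99-fold higher in MESC (9.0 to 11.1), and Dst and Exoc4 differed by 1.98-fold and 2.11-fold.

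Long genes were grouped by function, and each count below is to be read against the 7.94% MESC-high and 5.54% MEF-high of all gene models and the 63 and 136 of 802 long genes. Of 50 tested genes of neuronal adhesion and axon guidance, 3 were MESC-high and 14 MEF-high, with a median log2 ratio of -0.85, beside 0.29 for all gene models. Ncam1, a neural cell adhesion molecule, held 221 reads in MESC and 3406 in MEF, and Epha3, an ephrin receptor, held 20 and 381. Unc5c, a netrin receptor, held 56 and 551, whereas Dab1, an adaptor of the reelin pathway, held 1076 and 72. Of 42 ion channels and neurotransmitter receptors 8 were MESC-high and 7 MEF-high, with a median of 0.09, and the MEF-high share was close to that of the long genes as a whole. Here Cacna1c was on the MEF side, and Grik3, a kainate receptor subunit, held 875 reads in MESC and 55 in MEF.

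Of 63 transcription factors and nuclear regulators, 1 was MESC-high and 13 MEF-high, with a median log2 ratio of -1.0. Runx1 held 357 reads in MESC and 3122 in MEF, Npas3 held 101 and 818, and Tshz2 held 46 and 356. Of 29 genes of the extracellular matrix and its enzymes, 3 were MESC-high and 11 MEF-high, with a median of -1.44. Fbn1, which encodes fibrillin of elastic microfibrils, held 311 and 4893 reads, 20.5-fold higher in MEF (18.3 to 23.1). Adamts19, a secreted metalloprotease, went the other way with 187 and 5. The fibroblast markers moved in the same direction, from 5.65 RPKM in MESC to 128 in MEF, and the part of cell type makeup in these values was not tested.

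Of 51 cytoskeleton and cell junction genes, 1 was MESC-high and 12 MEF-high, with a median of -0.38. Tns1, the adhesion protein tensin, held 214 reads in MESC and 2480 in MEF. Of 61 kinases, phosphodiesterases and GTPase regulators, 6 were MESC-high and 11 MEF-high, with a median of -0.55, and both shares were close to those of the long genes as a whole. Pde3a held 29 and 446 reads, and Dock10, a guanine nucleotide exchange factor, held 15 and 210. Of 48 genes of RNA binding, trafficking, ubiquitin and metabolism, 1 was MESC-high and 3 MEF-high, with a median of -0.02. Atxn1, the ataxin gene, held 666 and 3483 reads. Of the 23 genes at known common fragile sites, none was MESC-high and 2 were MEF-high, with a median of -0.16. Csmd1 (1643 kb) held 55 reads in MESC and 438 in MEF, and Rora, a nuclear receptor gene, held 208 and 729. The 457 tested long genes on no list had 40 MESC-high and 68 MEF-high, with a median of -0.13.

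At the edge of the definition, Pcbp3 (200.028 kb), Plcxd3 (200.050 kb) and Glis1 (200.343 kb) were the shortest members, with 695, 61 and 147 reads in MESC and 448, 16 and 780 in MEF. Morc1 (199.669 kb), Clec16a (199.515 kb) and Bckdhb (199.090 kb) fell just outside, with 175, 491 and 386 reads in MESC and 5, 329 and 223 in MEF.

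The second question was how density runs along the gene. Each gene was cut into 20 equal parts in the direction of transcription. The slope is the log2 ratio of the density in parts 11 to 20 to that in parts 2 to 10, for genes with at least 100 reads there. Part 1 holds the promoter and was left out, and these stretches are called early parts (2 to 10) and late parts (11 to 20) below. The median slope of long genes was -0.23 in MESC (575 genes) and -0.15 in MEF (582 genes), so that 69.7% and 64.9% of them had the lower density in the late parts. Genes of 50 to 200 kb had medians of -0.04 and -0.01, and 54.7% and 51.1% of them were lower in the late parts.

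Relative to the mean of parts 2 to 20, the median long gene in MESC had a density of 1.83 in part 1, 1.25 in part 2, 1.03 in part 5, 0.886 in part 10, 0.831 in part 15 and 0.909 in part 20. In MEF the same parts had 1.53, 1.11, 1.01, 0.947, 0.911 and 1.01. Genes of 50 to 200 kb were nearly level from part 4 on, at 0.976 in part 4 and 0.898 in part 17 in MESC.

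**Figure D2:**
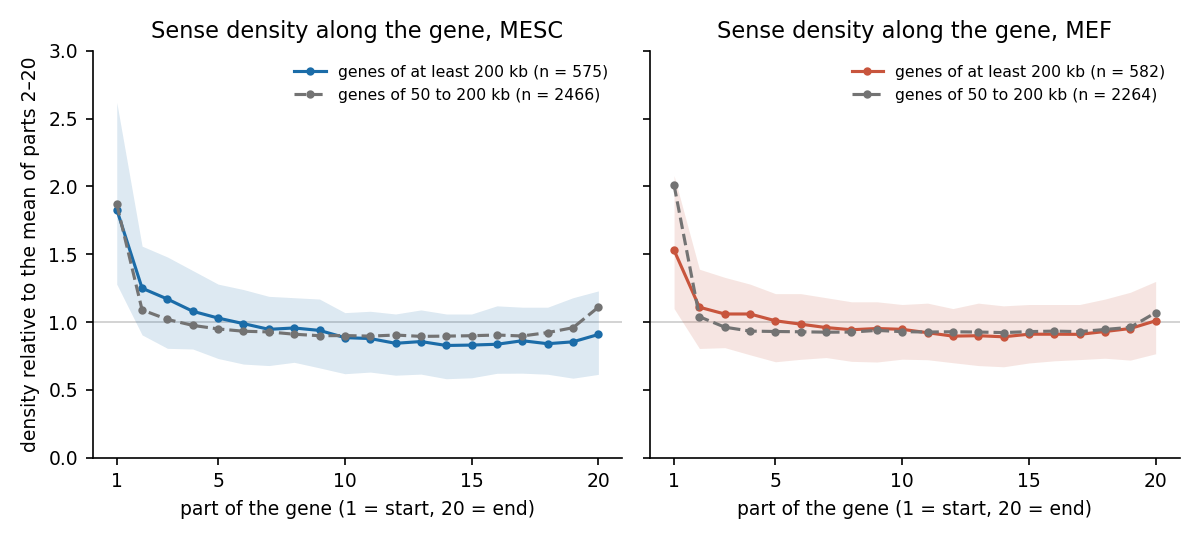
Median sense density in 20 equal parts of the gene, relative to the mean of parts 2 to 20, in MESC (left) and MEF (right), for long genes (solid line, band from the lower to the upper quartile) and genes of 50 to 200 kb (dashed). In MESC the solid line goes from 1.25 in part 2 to 0.831 in part 15, and in MEF from 1.11 to 0.911.

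The slope was steeper in longer genes. In MESC the median was -0.18 at 200 to 300 kb, -0.28 at 300 to 500 kb, -0.59 at 500 to 1000 kb and -0.63 above 1000 kb (29 genes). In MEF it was -0.10, -0.20, -0.22 and -0.24. A slope did not require the gene to be called transcribed. In MESC 73 genes of 500 to 1000 kb had a slope and 65 were transcribed, and above 1000 kb 29 and 20. In MEF the counts were 78 and 78, and 30 and 24. Some of the longest genes with a slope were thus not transcribed by the measure used here. The part of background reads in the slopes of the longest genes was not tested. In the 143 and 142 long genes with a single annotated start the median was -0.35 in MESC and -0.22 in MEF, and 120 and 116 of them were lower in the late parts. Genes of 50 to 200 kb with a single start had -0.08 and -0.04. Among the 485 long genes tested in both sets, 307 had the lower slope in MESC, and the median difference was -0.10.

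Exoc4 shows this decline. Its reads per part went from 569 in part 1 and 403 in part 2 to 195 in part 20 in MESC, so that the early parts were 1.64-fold denser than the late ones (1.55 to 1.73). In MEF they went from 163 and 111 to 112, 1.18-fold (1.08 to 1.30). Slit3 declined in both sets, 1.86-fold in MESC (1.64 to 2.12) and 1.60-fold in MEF (1.52 to 1.68). Adk, which encodes adenosine kinase, was 1.47-fold denser in its early parts in MESC (1.38 to 1.57) and 1.15-fold in MEF (1.04 to 1.27). Dst was 1.08-fold denser early in MESC (1.02 to 1.13) and 1.17-fold denser late in MEF (1.07 to 1.27).

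A slope was called when early and late parts differed at least 2-fold and the interval excluded equality. In MESC 60 long genes were denser late (10.4%) and 70 denser early (12.2%), beside 5.64% and 5.96% of all coding genes of at least 20 kb. In MEF 64 were denser late and 25 denser early (4.30%), beside 4.89% and 3.97%, so the MEF share denser early was near the background.

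Some of the genes highest in MESC thinned out early. Kcnq3 held 164 MESC reads in part 1 and 11 in part 20, 5.56-fold denser early than late (4.78 to 6.50). Dpp6 held 162 and 26, 3.6-fold (3.14 to 4.14), and A830018L16Rik held 94 and 0, 7.94-fold (5.84 to 11). Sh3gl2 held 31 reads or more in each of parts 1 to 10 and 6 or fewer in each of parts 11 to 15, 19.6-fold (10.9 to 39.6). Parts 16 to 20 of Sh3gl2 and most of part 15 lie in another gene of the same strand and were not counted. Of the 54 MESC-high genes whose MESC slope could be measured, 19 were denser early and the median slope was -0.60. Of the 122 MEF-high genes with a MEF slope, 4 were denser early and the median was -0.13.

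**Figure D3:**
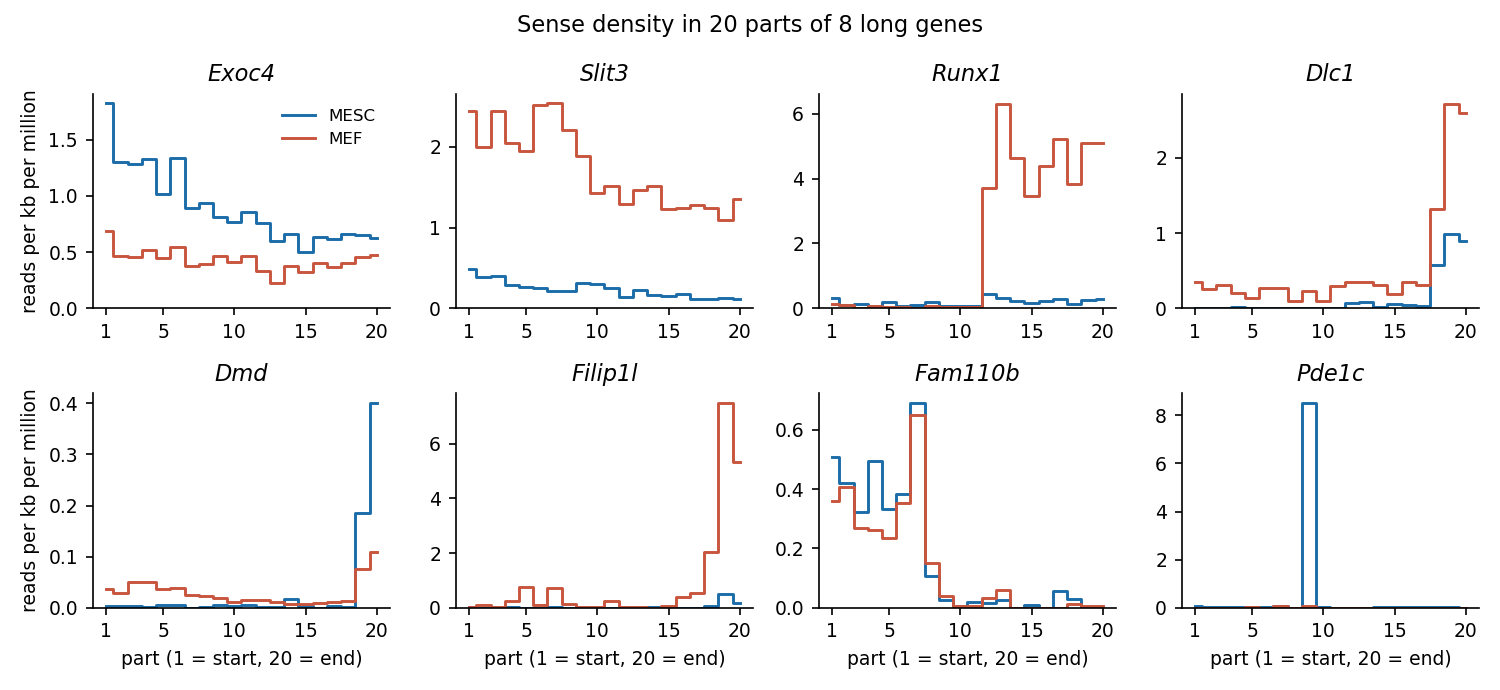
Sense density in each of 20 parts of 8 long genes, in RPKM, in MESC (blue) and MEF (red); each panel has its own y axis. Exoc4 and Slit3 decline along the gene, density goes up at part 12 in Runx1 in MEF and at part 18 in Dlc1 in both sets, and the MESC reads of Pde1c stand in part 9.

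Several genes with a steep slope were read over only a stretch of the model in both sets. Fam110b held 673 body reads in MESC and 432 in MEF, nearly all in parts 1 to 8, and was 19.7-fold (13.7 to 29.3) and 21.1-fold (13.3 to 35.5) denser early. Btbd3 had 69.9% of its MESC and 59.7% of its MEF reads of parts 2 to 20 in part 2. Socs6, a suppressor of cytokine signalling, had slopes of -3.44 in both sets, and Pigk, an enzyme of GPI anchor synthesis, -3.08 in MESC and -3.41 in MEF. The gene named a, which encodes the agouti signalling protein, had slopes of -6.55 and -4.87. Its model overlaps 2 other genes of the same strand, which were taken out, so that parts 1 to 5 were not counted.

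At the other extreme were genes in which density appeared partway. Schip1 held 8 MESC reads in parts 2 to 10 and 1212 in parts 11 to 20, and in MEF 6 and 756. Etl4 held 126 and 4808 in MESC, and Dab1 15 and 1057. Rbms3 held 16 MEF reads or fewer in each of parts 1 to 7 and 632 in part 8. Schip1 and Etl4 were denser late in both sets.

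A few slopes came from 1 narrow place. In MESC 13 of 575 long genes (2.26%) and in MEF 6 of 582 (1.03%) had over 50% of their reads of parts 2 to 20 in a single part, a measure chosen after values had been seen, beside 0.608% and 0.751% of genes of 50 to 200 kb. The 1092 MESC reads of Pde1c in part 9 lay within 0.00500 kb for the middle 80% of them. The 291 MESC reads of Cntn5 in part 6 included 272 at 1 position. Myo3a, whose parts 14 and 15 had no countable bases, held 545 of its 546 MEF reads in part 19, at 223 positions within 1.16 kb. In Dmd, by contrast, the 387 MESC reads of part 20 lay at 380 positions over 92.3 kb. Mid1, a ubiquitin ligase gene at the end of the X chromosome, had 3315 MESC reads at 2138 positions in part 20, in sequence next to the pseudoautosomal boundary, so the origin of its reads is uncertain.

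The third question was whether the course along the gene differs between the cell types. Of 485 long genes with a slope in both sets, the difference reached 2-fold with an interval excluding equality in 54. The late parts weighed more in MESC in 21 (4.33%) and in MEF in 33 (6.80%), beside 1.72% and 2.26% of all coding genes of at least 20 kb. Reads of 35 and 36 bases from the same MESC set gave such a difference in 4 of 430 long genes. Across the 485 genes the slopes in MESC and MEF had a Pearson r of 0.76 and a Spearman rho of 0.70, over genes that share both sets and are not independent replicates. Of the genes called in both sets 49 had the same direction and 1 the opposite.

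**Figure D4:**
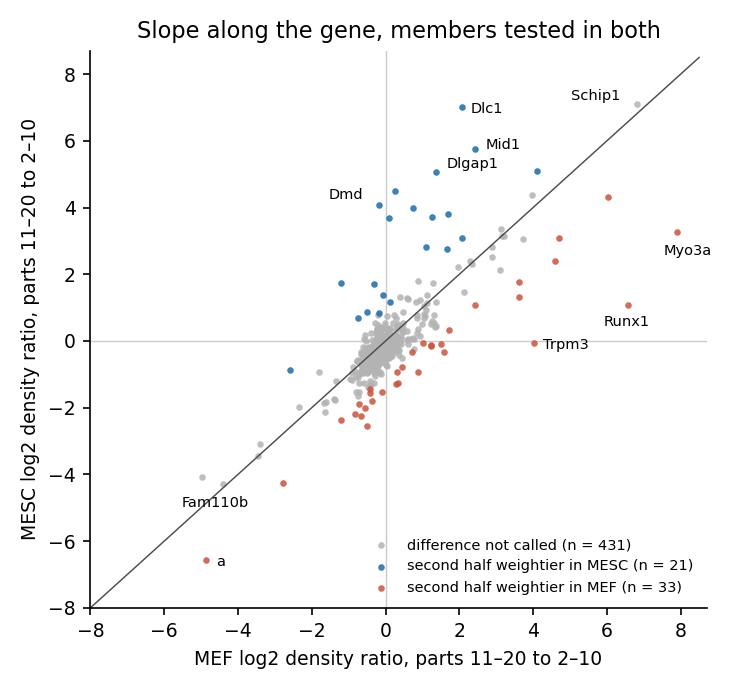
Slope along the gene in MEF (x axis) and MESC (y axis) for 485 long genes, as the log2 ratio of density in parts 11 to 20 to that in parts 2 to 10, with the line of equal slope. Most points follow the line; 21 genes (blue) weigh more towards the end in MESC and 33 (red) in MEF, with Dlc1 and Runx1 far from the line on either side.

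Runx1 had the largest difference towards MEF. In MEF parts 1 to 11 held between 0 and 9 reads each and parts 12 to 20 between 255 and 466. In MESC parts 1 to 11 held 6 to 29 reads and parts 12 to 20 held 14 to 43. The late parts were 95.7-fold denser in MEF (66.5 to 143) and 2.12-fold in MESC (1.67 to 2.71), a log2 difference of -5.49 (-6.17 to -4.85). MESC reads of Runx1 thus covered the distal stretch that was nearly empty in MEF, at a low level.

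Dlc1 and Dmd had the largest differences towards MESC. In MESC Dlc1 held 3 reads in parts 2 to 10 and 432 in parts 11 to 20, of which 388 lay in parts 18 to 20. In MEF it held 226 and 1064, so the whole gene was read and the last parts more densely. The log2 difference was 4.93 (3.35 to 7.23). In Dmd the MESC reads lay in parts 19 and 20 (179 and 387), with 16 or fewer in any other part. In MEF parts 2 to 10 held 211 reads and parts 11 to 20 held 206, of which parts 19 and 20 had 57 and 81. The log2 difference was 4.26 (3.66 to 4.89). The last stretch of Dmd holds the known promoter of a short dystrophin, and that annotated start, 2100 kb into the gene, had 10 reads in MESC and 5 in MEF.

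Other differences had a narrower base. Kcnn2, a calcium-activated potassium channel gene, held 7 early and 175 late reads in MESC and 64 and 85 in MEF. Dlgap1, a postsynaptic scaffold gene, held 21 and 784 in MESC, with 689 in part 19, and 95 and 274 in MEF. Towards MEF, Trpm3, a cation channel gene, held 92 and 99 reads in MESC and 9 and 164 in MEF. Its MESC reads included 54 in part 8 and 70 in part 17. Rgl1 held 52 and 150 reads in MESC and 37 and 524 in MEF.

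The fourth question concerned the starts. A start window ran from 50 bp before to 300 bp after an annotated start, and a start was called in use with at least 20 reads and at least 4 times the density of the body. Of the 943 first starts, 64 were in use in MESC (6.79%) and 43 in MEF (4.56%), beside 17.5% and 12.9% of the first starts of all gene models. No read fell in the first start window of 39.1% of the long genes in MESC and 45.9% in MEF, beside 26.7% and 34.5% at 50 to 200 kb and 34.3% and 40.0% at 2 to 50 kb. Among the 482 long genes with at least 200 body reads in MESC, 89 had no read at the first start and 139 had more reads at an internal start. The median at the first start was 4 reads. In MEF, also with 482 such genes, the counts were 107 and 141, and the median was 3 reads. These counts were not made for shorter genes with as many body reads, so they cannot be called particular to long genes.

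Of 1945 internal starts, in 669 long genes, 18 were in use in MESC (0.925%) and 15 in MEF (0.771%), beside 1.89% and 1.21% of the internal starts of all gene models. The share was below the background, and thinning the MESC reads to the MEF number left 9. The limit of 20 reads is harder to reach at low density. Transcribed long genes had a median of 0.176 RPKM in MESC and 0.200 in MEF, beside 0.705 and 0.677 in all gene models. The part of this lower density in the share of starts in use was not tested. At the in-use internal starts the 500 bp upstream held 110 antisense reads in MESC for 515 sense reads, and at the in-use first starts 1348 for 2598. In MEF the numbers were 79 for 481 and 414 for 1435. Over all annotated starts of long genes with at least 20 reads in 1 set, 8 first starts were MESC-high and 4 MEF-high, of 74, and 5 and 8 internal starts, of 31. Over the starts of all gene models the shares were 7.22% and 3.87%.

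In MESC the internal starts with most reads, in genes with at most 3 at the first start, were those of Mid1, Ssh2, Dclk1, Oxr1, Arfip1 and Auts2. At Ssh2, a phosphatase of cofilin, the start 132 kb in had 41 MESC and 20 MEF reads, and the first start 1 and 3. Dclk1, a microtubule-associated kinase, held 31 and 17 at 219 kb. Oxr1 held 31 and 17 at 342 kb, Arfip1 28 and 16 at 1300 kb, and Auts2 27 and 8 at 1010 kb. Mid1 held 64 and 15 at 294 kb.

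In MEF they were those of Palld, Runx1, Nav3, Tead1, Dlc1 and Filip1l. Palld, the actin-binding protein palladin, had 19 MESC and 90 MEF reads at 312 kb, and none at its first start. Runx1 held 11 and 34 at 129 kb, Nav3 10 and 31 at 96.2 kb, Tead1 18 and 29 at 62.7 kb, and Dlc1 22 and 23 at 325 kb. Filip1l held 0 and 22 at 196 kb. In 11 of these 12 genes both sets had reads at the internal start, and Filip1l was the exception.

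**Figure D5:**
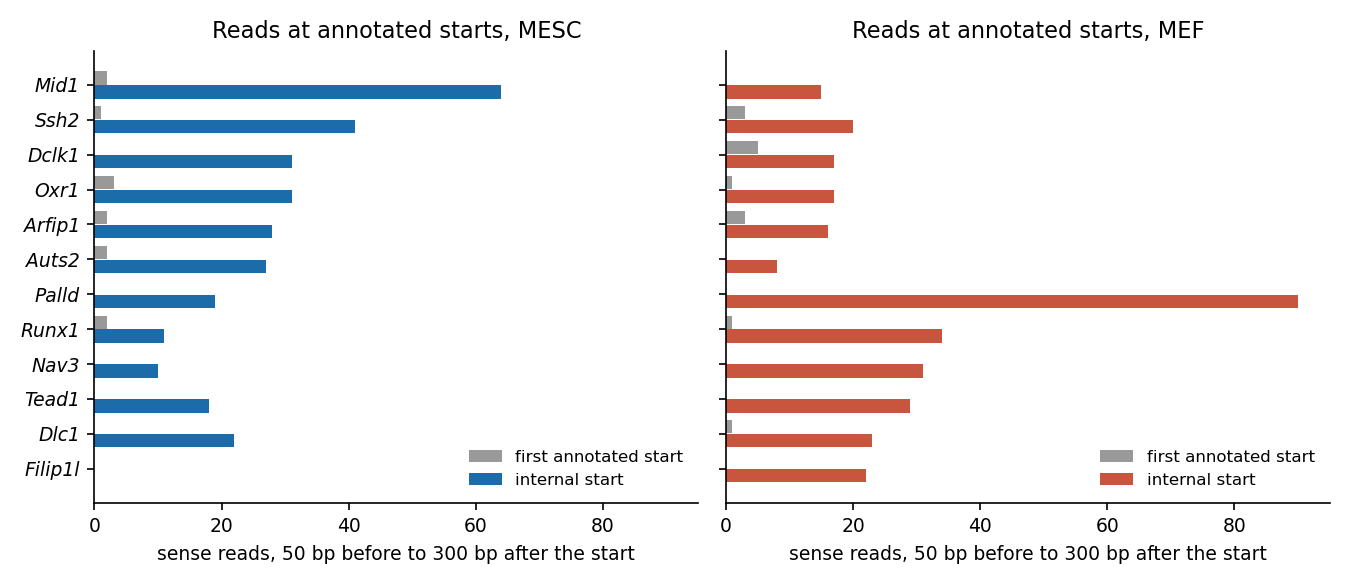
Sense reads from 50 bp before to 300 bp after the first annotated start (grey) and the internal start with most reads (colour) of 12 long genes, in MESC (left) and MEF (right). The internal start of Palld has 90 reads in MEF and that of Mid1 64 in MESC, while no first start shown has more than 5.

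An internal start can also be seen as a step, the density from 1 to 11 kb after it over the density as far before it. A step was called at 4-fold or more with an interval excluding equality, a limit set after the values had been seen. Of 894 internal starts with enough reads in MESC, 63 had a step (7.05%), and of 909 in MEF 59 had one (6.49%), beside 4.48% and 4.21% in all gene models. In Runx1 the 10 kb before the internal start held 9 MEF reads and the 10 kb after it 380. In MESC they held 11 and 30. In Filip1l they held 3 and 536 in MEF, in Palld 19 and 346, and in Auts2 7 and 39. In Dlc1 they held 4 and 73 in MESC and 14 and 143 in MEF, and in Oxr1 3 and 67 in MESC and 6 and 37 in MEF. Tead1 had no such step, with 194 and 193 in MEF.

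Genes with a step at any internal start had a median slope of 0.79 in MESC (65 genes) and 0.99 in MEF (66 genes). Those without had -0.27 and -0.20. Of the 60 genes denser late in MESC 31 had no called step, and of the 64 in MEF also 31. Step and slope were counted from the same reads, so a step can itself raise the slope. Genes with 1 annotated start could have no step and were counted among those without. In Auts2 density went from 113 MESC reads in part 1 to 16 in part 18, and stood at 164 and 205 in parts 19 and 20 beyond the internal start.

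The last question was how much antisense RNA lies in these genes. Antisense density, with annotated genes of the opposite strand taken out, was a median 6.82% of the sense density in long genes transcribed in MESC and 5.10% in MEF. In genes of 50 to 200 kb it was 4.46% and 3.48%. Sense density is lower in long genes. Per kb, the median antisense count was 0.0977 in long genes and 0.155 in genes of 50 to 200 kb in MESC, and 0.0688 and 0.0954 in MEF. All of these medians lay below the intergenic density of 0.187 reads per kb in MESC and 0.110 in MEF. The lower bound of the antisense density exceeded the intergenic density in 119 of 608 long genes in MESC and 177 of 673 in MEF. Among all gene models it did so in 5718 of 13590 and 4937 of 12824.

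The genes with the highest antisense to sense ratio fell into broad and narrow cases. Kcnq1, a potassium channel gene with a known antisense RNA, held 1125 antisense reads in MESC and 900 in MEF beside 82 and 31 sense reads, and in part 9 alone 314 MESC reads lay at 289 positions. Kcnab1 held 551 and 505 antisense reads, Megf11 426 and 396, and Trpc5 286 and 37, with the densest part at the end of each gene and most reads of that part at distinct positions. Megf11 also held 129 MESC antisense reads in part 2. Il1rapl1, a synaptic receptor gene of 1375 kb, held 3729 and 1710 antisense reads. In its part 13, 3699 MESC reads lay at 39 positions. In part 12 of Cntnap5b 2111 MESC antisense reads lay at 78 positions, and in part 15 of Dnahc5 125 MEF reads lay at 8. In Il1rapl1, Cntnap5b and Dnahc5 the high ratio thus rests on 1 narrow place.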

How the data were processed

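The deposited BED files list 1 aligned read per line with its 5′ position, strand and a read count of 1. The authors aligned reads with Eland to mm9 and removed those in rRNA-like repeats, per the series design text. Reads of 3 MESC and 2 MEF samples were pooled per cell type, so no replicate test or edgeR model could be fitted, and 4-fold ratios with exact conditional intervals stand in its place. The listed position was taken as the 5′ end, since 92.9% of MESC and 95.5% of MEF reads checked matched NCBIM37 there with at most 2 mismatches. Genes came from GENCODE vM1. RPKM values use each set's total without mitochondrial reads (8571395 and 6571116), which fell at 6404007 and 4693422 distinct positions. Intervals treat reads as independent, which amplification breaks. Ratios use at least 3 reads. No other per-sample columns were used. The scripts were tested on simulated data.

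The rule for named genes took the longest, the most read, the extremes of each measure, those at the 200 kb edge and up to 4 per list. Members, lists and rules were chosen with earlier results of these data known. Python 3.11.15, numpy, pandas, scipy and edgeR 4.0.16 (TMM factors only) were used. Alternatives changed scaling, read counting, masking, minimum reads and windows. A few genes and start sequences are not reported here.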

Additional observations from a re-analysis of the deposited data

How the results depend on the processing

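No paired analysis was possible because each deposited file pools the samples of a cell type, and for the same reason no sample could be left out. Of the recomputed summary values 115 stayed within 1.5 times of the count reported or within the median's interval, 33 moved further, given next, 33 moved further, given next, and none reversed. Other scaling moved the median log2 ratio of long genes to -0.60 (median ratio) and -0.55 (TMM), and 35-base reads to -0.54. Leaving out overlapped genes left 38 higher in MESC. Start windows higher in MESC numbered 13 and became 9 counting positions once, 1 with 50 reads and 25 with the wider window. Those higher in MEF numbered 12 and became 5, 1 and 27. Internal starts in use fell from 18 to 1 in MESC and from 15 to 1 in MEF with 50 reads, to 9 in MESC after thinning, and in MEF to 6 counting positions once and 9 at 10 times the body density. Parts 1 to 20 gave median slopes of -0.37 in MESC and -0.23 in MEF with 107 and 42 genes denser early. Genes with 1 annotated start gave -0.35 and -0.22, 4 and 6 denser late and 19 and 6 denser early, over fewer genes. With 300 reads in each set, 10 and 9 differences in slope were left. Median-ratio scaling gave 4 fragile-site genes higher in MEF, 0 nuclear regulators, 0 cytoskeletal genes and 0 genes of RNA binding and metabolism higher in MESC, and 5 of the last list higher in MEF; counting positions once also gave 0 of that list higher in MESC. The causes were not tested. Depth limits the start windows, where the median first start of genes with at least 200 body reads held 4 (MESC) or 3 (MEF) reads.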
